A study of Arabidopsis thaliana and Medicago truncatula and Solanum lycopersicum with 15 samples.

Results

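Open chromatin regions that were listed for one epidermal cell type of the Arabidopsis thaliana root and for none of the lists of the other cell type are described here. The regions of 4 epidermal lists, 2 from hair cells and 2 from non-hair cells, were joined on chromosomes 1 to 5 wherever they shared at least 1 bp, which gave 58036 merged loci. Members were chosen by presence in these lists. A locus was called hair-only when the 2 hair lists held a region there and no non-hair list did, and 512 loci met this rule, 0.882% of all merged loci. A locus was called non-hair-only in the reverse case, and 156 loci met that rule, 0.269% of all merged loci. Together the classes held 668 loci. The presence and absence that define the classes come from the same 4 lists, so their numbers and widths in those lists are descriptions and carry no test.

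The root epidermis is built from cell files of both types. In the files that become non-hair cells, the MYB proteins WEREWOLF and MYB23 act with the bHLH proteins GL3 and EGL3 and with TTG1 to activate GLABRA2 (GL2), a homeodomain protein that represses hair growth. In the neighbouring files CAPRICE and its single-repeat MYB relatives, among them TRY and the ETC proteins, displace the MYB activators, GL2 stays low, and RHD6 and related bHLH proteins start hair growth. In ATAC-seq a transposase cuts DNA that is not wrapped in nucleosomes, and places with many cuts are called as open regions, which often hold binding sites of transcription factors.

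Hair nuclei came from Col-0 plants with the transgenes ADF8p:NTF/ACT2p:BirA, and non-hair nuclei from Col-0 plants with GL2p:NTF/ACT2p:BirA. In both lines a promoter of the cell type drives a nuclear envelope tag that takes up biotin, and streptavidin beads pull down the nuclei that carry it, a purification known as INTACT. Both carry BirA, the biotin ligase, under the ACT2 promoter. The tissue was the fully differentiated root zone, so the cells were past the stage at which their fate is set. The tag marks every cell in which its promoter is active, and each line is also the only source of its cell type, so line and cell type cannot be told apart. Whole root tips of 1 cm, from Col-0, served for comparison because the rule did not use them. Their nuclei were captured by INTACT from plants with the transgenes UBQ10p:NTF/ACT2:BirA, or were prepared by sedimentation in sucrose. The labels do not say separately which transgenes the plants of the sucrose preparation carried. Each of these 4 groups had 2 biological replicates, and each reaction used 50000 nuclei. Plants of every group grew on vertical agar plates.

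The lists give positions and no scores or read totals, so the depth of each sample is unknown. Hair replicates 1 and 2 held 52373 and 35679 regions, and non-hair replicates 1 and 2 held 52278 and 31212. Each list had a commonest width that 16.9% to 21.5% of its regions shared, at 127 and 142 bp in the hair lists and at 131 and 152 bp in the non-hair lists. The 2 replicate 1 lists are longer than the 2 replicate 2 lists, and the counts given for the classes are not corrected for list length. With the 31212 widest regions of each list there were 791 hair-only and 533 non-hair-only loci.

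The classes were small beside the other ways in which a locus could be present. In 25892 loci all 4 lists held a region, and in 9983 loci both replicate 1 lists did and neither replicate 2 list. Hair replicate 1 alone held 6253 loci and non-hair replicate 1 alone held 7049. The loci of hair replicate 2 alone numbered 135, and those of non-hair replicate 2 alone numbered 155. Crossed pairs were hair replicate 1 with non-hair replicate 2, at 177 loci, and hair replicate 2 with non-hair replicate 1, at 136 loci. The hair-only number was above both crossed numbers, while the non-hair-only number lay between them. The numbers moved with the list left out. The hair-only number became 703 without hair replicate 1, 6787 without hair replicate 2, 6405 without non-hair replicate 1 and 568 without non-hair replicate 2. The non-hair-only number became 2046 without hair replicate 1, 177 without hair replicate 2, 347 without non-hair replicate 1 and 7215 without non-hair replicate 2.

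**Figure D1:**
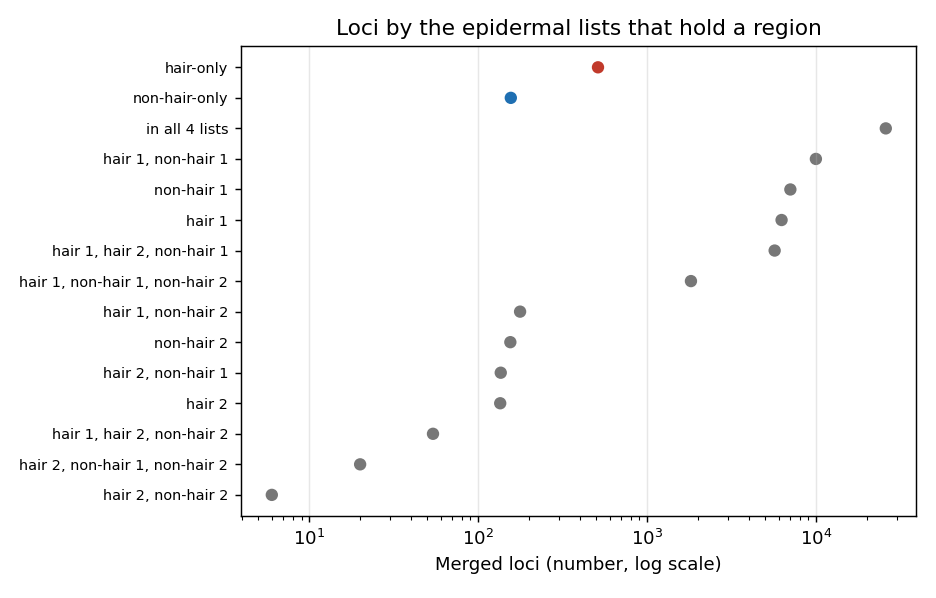
Number of merged loci (log scale, across) for each combination of epidermal lists that held a region (down), with numbers 1 and 2 for the replicates. The 512 hair-only and 156 non-hair-only loci are in colour at the top, and the 25892 loci in all 4 lists and the 9983 loci of both replicate 1 lists are far more numerous.

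Members of both classes were narrow. Hair-only loci had a median width of 180.5 bp (interquartile range 158 to 220.75) and non-hair-only loci one of 196 bp (157.75 to 243), against 206 bp for other loci in 2 lists and 440 bp for loci in all 4 lists. The crossed pairs had medians of 191 bp (hair replicate 1 with non-hair replicate 2) and 179.5 bp (hair replicate 2 with non-hair replicate 1). Such widths were thus not confined to the classes. In hair replicate 1 the called width at hair-only loci was lowest at 127 bp, had a median of 162 bp and was highest at 824 bp. In hair replicate 2 the lowest and the median were both 142 bp, and the highest was 546 bp. Of the 512 hair-only loci, 163 (31.8%) had the commonest width of the list in hair replicate 1 and 392 (76.6%) had it in hair replicate 2, and in both lists that width was also the smallest one. Non-hair-only loci were called at 131 bp at the lowest, 176.5 bp at the median and 790 bp at the highest in non-hair replicate 1, and at 152, 152 and 398 bp in non-hair replicate 2. The commonest width was that of 54 non-hair-only loci (34.6%) in replicate 1 and of 133 (85.3%) in replicate 2. Only 11 hair-only loci and 1 non-hair-only locus were wider than the median region in both lists of their cell type.

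The other cell type was rarely far away. The gap from a member to the nearest region of the other cell type had a median of 463.5 bp in the hair-only class and 439 bp in the non-hair-only class, and was under 150 bp for 109 hair-only loci (21.3%) and 32 non-hair-only loci (20.5%). A gap over 10 kb was found for 2 loci of each class. The hair-only loci just inside the rule were chr5:2084201-2084379, 3 bp from a non-hair region and at AT5G06740, and chr1:5828194-5828361, 8 bp from one and at SHA. The loci just outside it were chr2:265131-265384, which shared 7 bp with a non-hair region, and chr5:10635806-10635963, which shared 10 bp. For the non-hair-only class the loci just inside were chr5:21533312-21533463, 16 bp from a hair region and at AT5G53110, and chr2:13966161-13966403, 29 bp from one and at ZFN2, and those just outside were chr4:5025932-5026111, with 8 bp shared, and chr3:18467182-18467370, with 11 bp shared. Few loci sat at this border. Counted over loci joined from the hair lists alone, 32236 held both hair lists and overlapped a non-hair region, and 2 of them shared 20 bp or less with it. Over loci joined from the non-hair lists alone 28200 held both and overlapped a hair region, and 2 shared 20 bp or less.

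The nearest locus present in all 4 lists was a median of 1008 bp from a hair-only locus (interquartile range 337 to 2567 bp) and 781.5 bp from a non-hair-only locus. Loci of both replicate 1 lists had a median of 773 bp, and loci of hair replicate 1 alone one of 1062 bp. The distance was under 150 bp for 78 hair-only loci (15.2%) and 23 non-hair-only loci (14.7%), against 16.2% of other loci in 2 lists. The smallest distance in the hair-only class was 16 bp, at chr1:14166668-14166809, over 1 kb from any annotated gene. The greatest was 92791 bp, at chr2:2455374-2455722, also over 1 kb from a gene, where hair replicates 1 and 2 had 331 and 310 bp and INTACT root tip replicate 1 had 340 bp. In the non-hair-only class the distance ran from 4 bp, at chr1:27265186-27265488 inside AT1G72430, to 14672 bp, at chr1:15623711-15623865 near AT1G41840.

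**Figure D2:**
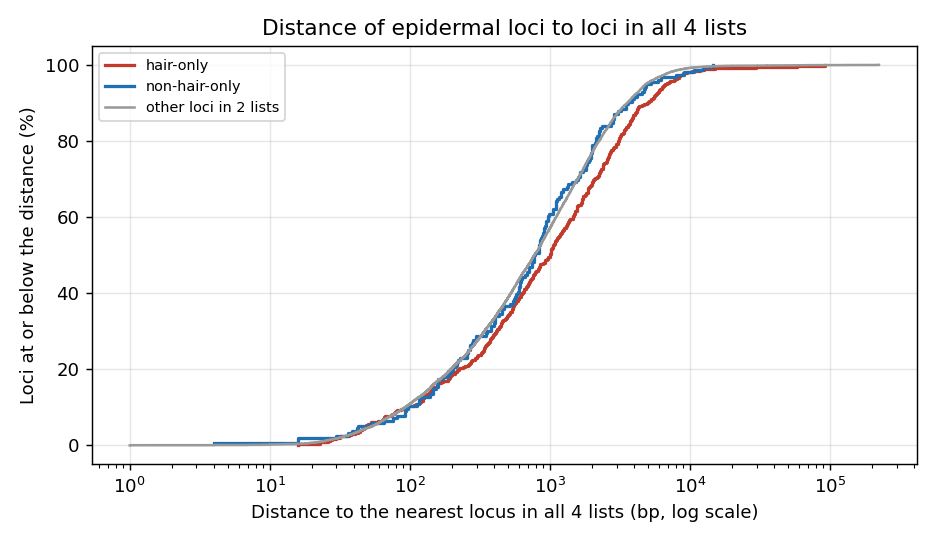
Cumulative percent of loci (up) against the distance to the nearest locus in all 4 lists (bp, log scale, across) for hair-only, non-hair-only and other loci in 2 lists. The hair-only curve runs to the right of the other curves around its median of 1008 bp, and the non-hair-only curve, with a median of 781.5 bp, runs close to the other loci in 2 lists.

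Positions relative to genes were taken from the RefSeq annotation of assembly TAIR10.1. The midpoint lay inside a protein-coding gene for 208 hair-only loci (40.6%, 95% Wilson interval 36.5 to 44.9) and 62 non-hair-only loci (39.7%, 32.4 to 47.6). The share was 71.8% among other loci in 2 lists and 43.6% among loci in all 4 lists. Midpoints over 1 kb from any gene made up 21.5% of the hair-only class (18.1 to 25.2) and 19.9% of the non-hair-only class (14.4 to 26.8), against 6.09% of other loci in 2 lists and 10.8% of loci in all 4 lists. Of the 10302 other loci in 2 lists, 9983 are those of both replicate 1 lists, and the crossed pairs lay nearer to the classes. Among the 177 loci of hair replicate 1 with non-hair replicate 2, 49.2% were inside a protein-coding gene (41.9 to 56.5) and 17.5% were over 1 kb from a gene (12.6 to 23.8), so their intervals overlapped those of both classes. Among the 136 loci of hair replicate 2 with non-hair replicate 1 the shares were 58.1% (49.7 to 66.0) and 13.2% (8.54 to 19.95). Within 500 bp of either end of a gene lay 52.7% of hair-only loci (48.4 to 57.0) and 50.6% of non-hair-only loci (42.9 to 58.4), against 55.0% of other loci in 2 lists and 70.1% of loci in all 4 lists. These intervals cover counting error alone, and neighbouring loci are not independent.

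Gene-poor windows were the 20% of 500 kb windows with the fewest gene midpoints per base pair, and their position relative to the centromeres was not analysed. They held 105 hair-only loci (20.5%, 17.2 to 24.2) and 18 non-hair-only loci (11.5%, 7.42 to 17.5), against 9.48% of every merged locus and 9.27% of loci in all 4 lists. Among the 177 loci of hair replicate 1 with non-hair replicate 2, 36.7% lay in these windows (29.97 to 44.04). Among the 136 loci of hair replicate 2 with non-hair replicate 1, 4.41% did (2.04 to 9.29). The shares of both classes lay between those of these crossed pairs, so a high share was not confined to the hair-only class. Of loci in hair replicate 1 alone 18.5% lay in these windows, and of loci in non-hair replicate 1 alone 3.23% did. The replicate 2 lists went the other way, with 17.0% of loci in hair replicate 2 alone (11.6 to 24.3) and 32.3% of loci in non-hair replicate 2 alone (25.4 to 40.0). Without non-hair replicate 1 the order of the classes turned as well, to 9.26% of hair-only and 21.0% of non-hair-only loci. With the 10% of windows poorest in genes the shares were 7.42% and 2.56%.

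Hair-only loci were spread unevenly over the chromosomes. Chromosome 5 held 154 of the 512 (30.1%), against 23.1% of every merged locus, and chromosome 3 held 59 (11.5%), against 18.7%. Non-hair-only loci numbered 46, 29, 24, 28 and 29 on chromosomes 1 to 5. A member of the hair-only class had another of its class within 10 kb in 123 cases (24.0%), and a member of the non-hair-only class did in 14 cases (8.97%). The classes hold 512 and 156 loci, so a near neighbour of the same class is likelier in the larger one by number alone. No background share was taken, so these values do not show which class is more clustered. The densest 20 kb stretches of the hair-only class were chr4:5232461-5243296 with 5 loci, 1 of them at AT4G08280, chr1:18195158-18207566 with 4 around AT1G49205 and AT1G49225, and chr1:230566-233444 with 3 at AT1G01630, AT1G01640 and SPPL4. Non-hair-only loci came no closer together than 2 in a stretch, as at AT2G17070 and AT2G17080 on chromosome 2.

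A single 3 Mb stretch held the most hair-only loci, and it was picked after the counts were seen. From 7 to 10 Mb on chromosome 5 there were 62 hair-only loci, 12.1% of the class, and 0 non-hair-only loci. The consecutive 1 Mb windows held 23, 20 and 19 hair-only loci, the highest numbers among 121 windows, whose median was 3, while no other window held more than 15. Hair-only loci were 3.39% of the 1831 merged loci there (95% Wilson interval 2.65 to 4.32), against 0.801% elsewhere. By share of loci the stretch was not the highest, since its windows ranked 4, 5 and 8 of 121, below chromosome 1 from 14 to 15 Mb with 3 of 43 loci (6.98%), chromosome 2 from 4 to 5 Mb with 2 of 45 (4.44%) and chromosome 4 from 5 to 6 Mb with 13 of 299 (4.35%). The 0 non-hair-only loci among 1831 had a 95% Wilson upper limit of 0.209%, against a share of 0.278% elsewhere. That limit takes loci as independent, in a stretch picked after the counts were seen. Of the 121 windows, 46 held 0 non-hair-only loci, and chromosome 1 from 0 to 4 Mb held 0 as well. In the same stretch hair replicate 1 alone held 493 loci and non-hair replicate 1 alone held 35, and hair replicate 2 alone held 10 and non-hair replicate 2 alone held 1.

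Loci present in all 4 lists were also wider in hair cells over this stretch, as in some other windows. The median log2 ratio of their called width, hair over non-hair, was 0.12 in replicate 1 and 0.13 in replicate 2 there, against -0.02 in replicate 1 and 0.07 in replicate 2 on the rest of the genome. On chromosome 2 from 4 to 5 Mb the ratios were 0.23 and 0.15 in replicates 1 and 2. On chromosome 5 they were 0.15 and 0.06 from 13 to 14 Mb and 0.02 and 0.29 from 1 to 2 Mb. Ratios of this size were therefore not confined to the stretch. The stretch held 3.45% and 3.08% of the regions of hair replicates 1 and 2, and 2.57% and 2.85% of those of non-hair replicates 1 and 2. The 4 root tip lists held 3.03% to 3.17% of their regions there, below the share of hair replicate 1 and above those of both non-hair lists. Only 17 of the 62 hair-only loci (27.4%) met a root tip list, against 32.9% of hair-only loci elsewhere. Without the stretch the hair-only class numbered 450. The lists hold no read counts, so how many reads fell in the stretch was not analysed here.

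**Figure D3:**
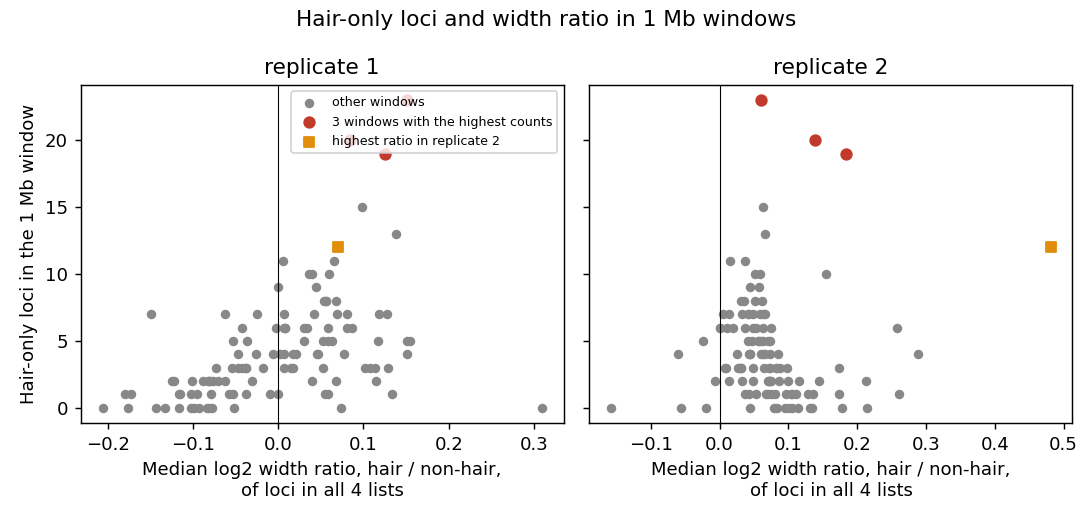
Hair-only loci per 1 Mb window (up) against the median log2 ratio of called width, hair over non-hair, at loci in all 4 lists of the window (across), for replicate 1 on the left and replicate 2 on the right. Each point is a window with at least 20 loci in all 4 lists. Windows below that are not drawn, among them chromosome 1 from 14 to 15 Mb and chromosome 2 from 4 to 5 Mb, with 19 each. The 3 red windows, the consecutive windows on chromosome 5, hold 23, 20 and 19 hair-only loci. Their ratios are above 0 in both replicates, as are those of many other windows. The square is the first window of chromosome 1, with 12 hair-only loci and a replicate 2 ratio of 0.48.

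The root tip lists gave a view that the rule had not used. At least 1 of the 4 root tip lists met 165 hair-only loci (32.2%, 95% Wilson interval 28.3 to 36.4) and 63 non-hair-only loci (40.4%, 33.0 to 48.2), where 48.7% of every merged locus was met. The share was 76.5% for loci in all 4 epidermal lists, 37.8% for loci in 3 lists and 27.1% for other loci in 2 lists. For the crossed pair of hair replicate 1 with non-hair replicate 2 it was 49.2% (41.9 to 56.5). For that of hair replicate 2 with non-hair replicate 1 it was 16.9% (11.5 to 24.1). The shares of both classes lay between those of the crossed pairs. Of the hair-only loci 347 (67.8%) were met by no root tip list and 5 by all 4. Of the non-hair-only loci 93 (59.6%) were met by none and 8 by all 4. The shares met by all 4 were thus 0.977% and 5.13%, against 15.2% of every merged locus and 0.553% of other loci in 2 lists. For the crossed pairs they were 11.3% (hair replicate 1 with non-hair replicate 2) and 0% (hair replicate 2 with non-hair replicate 1).

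Among hair-only loci INTACT root tip replicates 1 and 2 met 26.8% and 8.98%, and sucrose replicates 1 and 2 met 1.76% and 4.88%. Among non-hair-only loci INTACT replicates 1 and 2 met 35.3% and 12.2%, and sucrose replicates 1 and 2 met 13.5% and 12.8%. INTACT replicate 1 was the highest list for both classes, and with the lists as deposited hair-only loci were met less often than non-hair-only loci in each list. The INTACT lists averaged 17.9% ± 12.6 and the sucrose lists 3.32% ± 2.21 at hair-only loci (SD, n = 2 each), a difference of 14.6 percentage points with an exact two-sided permutation p of 0.333, the smallest that 2 against 2 lists allow, and of 0.667 after Benjamini-Hochberg adjustment over both classes. For non-hair-only loci the means were 23.7% ± 16.3 for INTACT and 13.1% ± 0.453 for sucrose, a difference of 10.6 points (exact permutation p = 1, adjusted p = 1). Without INTACT replicate 1 that difference was -0.962 points, with INTACT below sucrose, and the one for hair-only loci was 5.66 points. For neither class could a test of this size call the difference.

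Between the classes, the hair-only percentage minus the non-hair-only percentage averaged -7.83 points over the 4 root tip lists and was negative in 4 of 4 lists. An exact two-sided sign-flip permutation test gave p = 0.125, the smallest that 4 lists allow. This direction held under some other choices of epidermal regions and turned under others. With regions under 150 bp apart joined, the difference was -10.0 points. It was -5.44 points without hair replicate 1 and -13.1 points without hair replicate 2. With 31212 regions kept per list, the widest ones, the difference was 5.51 points, and 51.8% of hair-only and 35.8% of non-hair-only loci met at least 1 root tip list. With the widest 50% of each list it was 0.92 points, at 72.7% and 71.2%. Without non-hair replicate 2 it was 8.80 points, at 35.2% and 14.8%, and without non-hair replicate 1 it was -0.186 points, at 35.6% and 33.4%. The lists differed in which loci they met. INTACT replicate 1 met 26.8% of hair-only loci against 10.3% of other loci in 2 lists, and INTACT replicate 2 met 8.98% against 19.1%, so the direction turned between replicates of 1 preparation. Of loci of hair replicate 1 with non-hair replicate 2, INTACT replicates 1 and 2 met 24.3% (18.6 to 31.1) and 39.0% (32.1 to 46.3). Of loci of hair replicate 2 with non-hair replicate 1, each met 9.56%. A share near 26.8% in INTACT replicate 1 was thus not confined to the hair-only class. For non-hair-only loci the sucrose lists met 13.5% and 12.8%, against 1.47% and 2.23% of other loci in 2 lists. The crossed pair of hair replicate 1 with non-hair replicate 2 was met at 15.8% (11.2 to 21.9) and 14.7% (10.2 to 20.7), so these shares were not confined to the non-hair-only class.

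**Figure D4:**
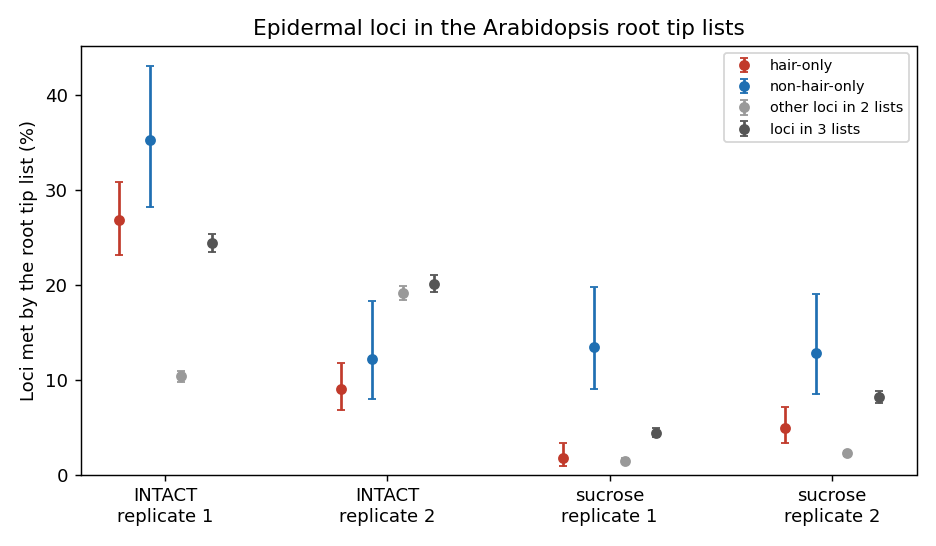
Percent of loci met by each Arabidopsis root tip list (up, with 95% Wilson intervals, counting error only) for hair-only, non-hair-only, other 2-list and 3-list loci. Hair-only loci, at 26.8%, 8.98%, 1.76% and 4.88%, lie below non-hair-only loci, at 35.3%, 12.2%, 13.5% and 12.8%, in each list as deposited. The intervals overlap in both INTACT lists, and the order of the classes turned under some other choices of epidermal regions.

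Width went with presence in root tips. A locus counted as met at 1 bp of overlap or more, which a wider locus reaches more readily, and the part of this in the shares was not tested. Of the 128 widest hair-only loci 44.5% were met (36.2 to 53.2), and of the 140 narrowest 22.1% were (16.1 to 29.7). Of the 38 widest non-hair-only loci 60.5% were met (44.7 to 74.4), and of the 39 narrowest 25.6% were (14.6 to 41.1). The 5 hair-only loci in all 4 root tip lists had a median width of 272 bp, and the 8 non-hair-only loci in all 4 had one of 380.5 bp.

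Lists of genes known from root epidermal biology were searched for members in the gene or within 1 kb of it. Of 27444 protein-coding genes, 1.77% had a hair-only locus, 0.532% had a non-hair-only locus and 71.1% had a locus in all 4 lists. Of 16 matched genes of epidermal fate, 1 had a hair-only locus and 2 had non-hair-only loci, while 11 had a locus in all 4 lists. The 2 of 16 is above the share over all genes and was not tested, since the list was drawn up with earlier results of these data known. None of 41 root hair growth genes and none of 10 root nutrient uptake genes had a member of either class, although 33 and 9 of them had a locus in all 4 lists. Against shares of 1.77% and 0.532% over all genes, a count of 0 in lists of this length is near the background. Of 11 hormone response genes, 0 had a hair-only and 1 a non-hair-only locus, and all 11 had a locus in all 4 lists.

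GL2, the homeodomain gene of non-hair fate, held a non-hair-only locus at chr1:30037189-30037401 inside the gene. It covered 171 bp in non-hair replicate 1 and 152 bp in non-hair replicate 2, and 0 bp in both hair lists and in the 4 root tip lists. It lay 174 bp from a far wider locus of all 4 lists, chr1:30034391-30037014. That neighbour spanned 2603 and 2537 bp in non-hair replicates 1 and 2, against 664 and 538 bp in hair replicates 1 and 2, and 0 bp in the root tip lists. Among all 25892 loci in all 4 lists it had the greatest excess of width in non-hair cells, taking the smaller of the replicate differences, which was 1939 bp. Non-hair replicate 1 alone held 4 further loci inside GL2, of 165, 203, 364 and 343 bp.

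ADF8, which encodes an actin depolymerising factor expressed in hair cells, had no member. Its locus of all 4 lists at chr4:280236-281486 spanned 1251 and 1210 bp in hair replicates 1 and 2, against 396 and 350 bp in non-hair replicates 1 and 2. It had the greatest excess of width in hair cells among the same 25892 loci, with a smaller replicate difference of 855 bp. The promoters of ADF8 and GL2 also drive the nuclear tag in the hair and non-hair lines. Reads from the transgene and from the native copy cannot be told apart at either gene, and the part of the transgene in the GL2 member was not tested.

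MYB23, the MYB gene that reinforces non-hair fate together with WEREWOLF, had a non-hair-only locus at chr5:16127522-16127763, with its midpoint 82 bp from the gene. It covered 242 and 152 bp in non-hair replicates 1 and 2, 0 bp in both hair lists, 191 bp in INTACT root tip replicate 1 and 0 bp in the other 3 root tip lists. Its promoter is not part of the transgenes that the labels name. CPL3, also called ETC3, a single-repeat MYB gene of the CAPRICE family that promotes hair fate, had a hair-only locus at chr4:459532-459766. The midpoint of this locus lay 746 bp from the gene. That locus covered 232 and 142 bp in hair replicates 1 and 2 and 0 bp in the non-hair and root tip lists. CPL3 also had a locus of all 4 lists on its other side, with the midpoint 53 bp from the gene. This second locus covered 512 and 544 bp in the hair lists and 477 and 438 bp in the non-hair lists.

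EIR1, the gene of the auxin efflux carrier PIN2 of the epidermis and cortex, had a non-hair-only locus at chr5:23105438-23105644. The midpoint of this locus lay 313 bp from the gene. The locus covered 207 and 152 bp in non-hair replicates 1 and 2 and 0 bp in both hair lists. In the root tip it covered 132 bp in INTACT replicate 1, 82 bp in sucrose replicate 1 and 74 bp in sucrose replicate 2, so 3 of the 4 root tip lists held it. In replicate 2 of their own cell type the members at GL2, MYB23, EIR1 and CPL3 all had the commonest, smallest width of the list.

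**Figure D5:**
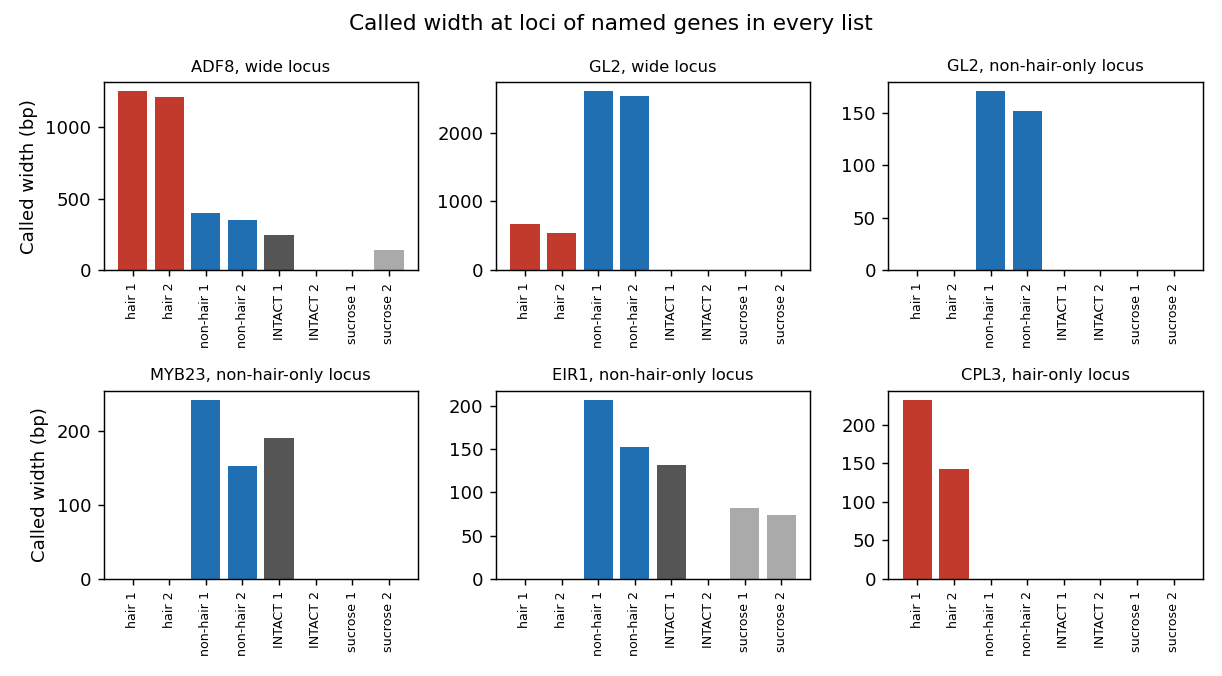
Called width (bp, up, each panel with its own scale from 0) in the hair, non-hair, INTACT root tip and sucrose root tip lists (across, replicates 1 and 2) at the wide loci of ADF8 and GL2, present in all 4 epidermal lists, and at the members at GL2, MYB23, EIR1 and CPL3. The wide loci of ADF8 and GL2 differ by at least 855 bp (ADF8) and 1939 bp (GL2) between the cell types in both replicates, whereas the members are 142 to 242 bp wide in their own cell type and absent in the other.

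The lists of both cell types held regions at or within 3 kb of each marker gene. Within 1 kb, a locus of all 4 lists was found for 8 of 9 hair markers, 4 of 5 non-hair markers and 6 of 8 markers of other root cell types. Regions within 3 kb can belong to neighbouring genes, and this was not tested. Over 9 hair cell markers, each taken with 3 kb on either side, the covered length summed to 15494 and 10234 bp in hair replicates 1 and 2 and to 17530 and 8215 bp in non-hair replicates 1 and 2. ADF8 was the 1 hair marker covered more in hair cells in both replicates. Over 5 non-hair markers the sums were 6051 and 4253 bp in hair replicates and 10956 and 5830 bp in non-hair replicates. GL2 alone gave 1769 and 1311 bp of these in hair replicates and 5554 and 3149 bp in non-hair replicates. ADF8 and GL2 are also the genes whose promoters drive the nuclear tags. GL2 and MYB23 were covered more in non-hair cells in both replicates. HDG11 was covered more in hair cells in both, and TTG2 and WEREWOLF differed in direction between replicates. The 8 matched markers of endodermis, stele and root cap were covered in all 4 epidermal lists too, with sums of 14883 and 9007 bp in hair replicates and 16333 and 6456 bp in non-hair replicates, and none of the 8 was at 0 in an epidermal list. Of these, PHB, SUC2 and FEZ were covered more in hair cells in both replicates, and SCR was covered more in non-hair cells in both, which are more genes than the 1 hair marker. No marker of another root cell type had a member of either class. Open chromatin at a gene does not show that the gene is expressed, and the part of other cell types in the lists was not tested.

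The widest members, ranked by the width percentile within their own lists, were mostly at genes without a symbol in the annotation. The hair-only locus of highest rank, chr5:11184665-11185273 near AT5G29550, covered 606 and 546 bp in hair replicates 1 and 2, 0 bp in both non-hair lists, and 563, 609, 583 and 608 bp in INTACT replicates 1 and 2 and sucrose replicates 1 and 2. It was open over nearly its whole length in whole root tips by both preparations and absent from both non-hair lists. The hair-only loci chr5:9346311-9346729 at AT5G04245, with 397 and 327 bp in hair replicates 1 and 2, and chr5:9346949-9347290 near AT5G26640, with 342 and 290 bp, lay side by side within the stretch of chromosome 5 and met no root tip list. The nearest non-hair regions were 6544 and 7182 bp away. Further wide hair-only loci lay near AT1G30080 (487 and 268 bp in the hair lists, and in all 4 root tip lists), near AT1G12190 (566 and 425 bp), and inside AT5G03610 (323 bp in each hair list). The fifth in rank, chr4:9599216-9599557, with 301 and 337 bp, was over 1 kb from a gene.

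All 4 root tip lists met 2 of the 8 widest hair-only loci and 4 of the 8 widest non-hair-only loci. Over every merged locus, of any width, the share was 15.2%. The non-hair-only locus of highest rank, chr2:6358080-6358511 at AT2G14810 and NPY2, a gene of the NPH3 domain family that acts in auxin-dependent organ formation, covered 432 and 398 bp in non-hair replicates 1 and 2. It covered 379 and 0 bp in INTACT replicates 1 and 2 and 314 and 338 bp in sucrose replicates 1 and 2. At chr2:7434119-7434610, near AT2G17080 and SSP, the widths were 492 and 252 bp in the non-hair lists, 372 and 492 bp in the INTACT lists and 463 and 422 bp in the sucrose lists. At chr2:10376481-10377270 near AT2G24400 they were 790 and 191 bp in the non-hair lists, 727 and 477 bp in the INTACT lists and 648 and 507 bp in the sucrose lists. RTFL2, a gene for a small peptide of the ROTUNDIFOLIA4-like family, had a locus at chr2:12522115-12522569 with 445 and 189 bp in the non-hair lists and 211 to 328 bp in the root tip lists. Near AT2G25980 the widths were 547 and 190 bp in the non-hair lists and 403 to 523 bp in the root tip lists. These loci are open regions of the root tip that the hair lists lack, and each was narrower in non-hair replicate 2 than in replicate 1. IQD19, a gene of the calmodulin-binding IQ67 domain family, had a wide non-hair-only locus of 433 and 239 bp, which INTACT replicate 1 alone met, with 307 bp.

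Several genes had more than 1 member, and they are named here after their values were seen. In the hair-only class AT1G01640 had 3, and SPPL4, a signal peptide peptidase-like protease gene, shared 2 of them. The amino acid transporter gene SIAR1 had 2, one of which, chr1:16916899-16917472, covered 574 and 213 bp in hair replicates 1 and 2 and was met by 3 root tip lists. OFP7 of the ovate family, the microtubule-associated protein gene CLASP, the auxin transporter gene ABCB19, IMS2 of glucosinolate side-chain synthesis, the zinc finger gene ZFP3 and the receptor-like protein gene RLP52 had 2 each, as did AT1G02260, AT1G27660, AT1G49205 and AT1G67050. IMS2, ZFP3 and RLP52 lie in the stretch of chromosome 5. In the non-hair-only class PEN2, a gene for a myrosinase of glucosinolate breakdown, had 2 loci inside the gene, of 204 and 214 bp in non-hair replicate 1 and 152 bp each in replicate 2. IQD19 had 2 as well.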

How the data were processed

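ATAC-seq region lists of 8 Arabidopsis samples were used, of 15 samples in the series. Each deposited list gives the chromosome and the first and last position of every region and no other value. Their names give the HOMER region mode and a setting of 150, and the submitters' processing notes name Bowtie2, HOMER and the builds TAIR10 and IRGSP-1.0, with no roles or versions. Coordinates are TAIR10, counted from 1. Filters, read depth and pooling are not given in the sources used here, and the purified genomic DNA sample was not analysed here.

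Regions were joined into loci at 1 bp of overlap and assigned to classes by presence in each list (pandas 2.3.3 and NumPy 2.4.6 under Python 3.11.15, with SciPy 1.17.1 for intervals and Matplotlib 3.10.9 for plots). Joining and classing were checked on 98000 simulated regions, where 29000 of 29000 planted loci were recovered. Called width is the number of base pairs that a list covers within a locus. Gene positions came from the RefSeq table of TAIR10.1 (37899 genes, 27444 protein-coding), without printing its coordinates. Distances from a locus to a gene were measured from the midpoint of the locus, so a locus beside a gene can reach into it. Midpoints of loci in all 4 lists lay within 150 bp of a gene end in 38.4% as placed and in 13.7% and 13.8% when shifted by 2000 bp either way. The table gives no strand, so distance to either gene end replaced distance to the gene start, and the symbols MYC1, RSL3, RSL5, RHS2, EN7 and CO2 found no match. Intervals of shares are 95% Wilson intervals for counting error alone. Lists, not loci, were the samples in exact permutation tests. Named members were the 8 widest by percentile per class, those at listed genes, the 3 densest 20 kb stretches per class (9 non-hair-only stretches tied), the nearest to and farthest from a locus in all 4 lists, and those at the border of the rule. Members in all 4 root tip lists and genes with several members were added after their values were seen. The members and gene lists were chosen with earlier results of these data known.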

Additional observations from a re-analysis of the deposited data

How the results depend on the processing

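Over 13 results and 137 alternative values, 72 left out 1 list. Of the other 65, 38 kept their value within its error, their direction in a test, or within 1.5 times for counts, 25 moved and 2 turned direction. The 2 were the hair-only minus non-hair-only difference in the share met, at 0.92 points with the widest 50% of each list and at 5.51 points with 31212 regions per list. For both differences between root tip values, the settings that change the epidermal lists were added after seeing the data. With regions under 150 bp apart joined, the median distance to a locus in all 4 lists was 1303 bp for hair-only and 970 bp for non-hair-only loci. With the widest 50% of each list the distances were 2782 and 1704 bp, the shares met in root tips 72.7% and 71.2%, the hair-only share in gene-poor windows 15.3% and the non-hair-only share near a gene end 59.5%. With 31212 regions kept per list, the widest ones, the numbers were 791 and 533, the shares in root tips 51.8% and 35.8%, the hair-only distance 1187 bp, its share near a gene end 57.4%, and the gene-poor shares 15.0% and 5.82%. With no region of the other cell type within 500 bp the numbers were 245 and 72. By the sucrose lists alone 5.47% of hair-only and 15.4% of non-hair-only loci were met. In 100 kb windows the hair-only gene-poor share was 24.4%, and with the lowest 10% of windows the shares were 7.42% and 2.56%. Within 1000 bp of a gene end lay 71.7% and 73.7%, and 46.7% of hair-only loci lay within 500 bp of a protein-coding one. The cause of these moves was not tested, beyond the smaller lists that the construction of the width settings gives.

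Leaving out each list in turn gave 568 to 6787 hair-only and 177 to 7215 non-hair-only loci. The share met in root tips ran over 11.9% to 35.6% and 14.8% to 41.8%, the distance over 597 to 971 bp and 694.5 to 941 bp, the gene-poor share over 9.26% to 20.6% and 3.45% to 21.0%, and the share near a gene end over 49.5% to 60.8% and 44.4% to 55.4%, with hair-only before non-hair-only in each pair. INTACT minus sucrose ran over 5.66 to 23.4 points for hair-only and -0.962 to 22.1 points for non-hair-only loci, the lowest values without INTACT replicate 1. The hair-only minus non-hair-only difference ran over -9.38 to -6.54 points when a root tip list was left out and over -13.1 to 8.80 points when an epidermal list was, and it turned to 8.80 points without non-hair replicate 2. With the replicate number as a block, the differences stayed 14.6 and 10.6 points, with exact permutation p of 0.5 and 1, and 2 pairs cannot reach a lower p than 0.5. Labels do not say that equal numbers mark shared plants. Leaving out the chromosome 5 stretch, chosen after seeing the data, gave 450 hair-only loci. With no read counts, a locus absent from a list may be one that was too shallow to be called.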
